A study of Mus musculus with 6 samples.

Results

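The heat shock proteins and chaperonins are the protein-folding machines of the cell, and their transcripts were followed here in mouse BaF3 cells 24 h after a Notch1 construct was delivered. The members were all genes whose symbol starts with Hsp followed by a, b, d, e, h or 90, with Dnaja, Dnajb or Dnajc followed by a digit, or with Cct followed by a digit. The rule found 81 of the 18946 genes listed in either of the 2 deposited expression tables. Of these, 77 stood in both tables, 2 (Dnajb8 and Dnajc5g) only in the table of replicate 1 and 2 (Hspb2 and Hspb8) only in that of replicate 2. A further filter, FPKM of at least 1 in at least 2 of the 6 libraries, left 66 members among 11050 tested genes, of which 63 members reached FPKM 1 in all 6 libraries. FPKM scales a gene's fragments to its transcript length and to the size of the library, so it is a level per length and can be compared between genes.

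BaF3 is a mouse pro-B cell line that depends on interleukin-3 (IL-3), and the labels describe it as a chronic lymphocytic leukemia line. All cells were grown with 10% serum and 2 ng/mL mouse IL-3, were nucleofected with a plasmid and were sorted after 24 h. The CTdel group received pmax-Clover-CTdel, which the series' design text describes as a mutated ICN, and the labels do not say what is deleted. The ICN group received pmax-Clover-ICN, and the con group received pmax-Clover, the plasmid with the fluorescent protein Clover that all 3 groups share. Each group had 2 libraries, 6 in all. Delivery was transient and in 1 cell line, and the labels do not say whether a group's 2 libraries are separate cultures. The p-values therefore measure only how these libraries spread, which may be technical. The question was how transcript levels differ between cells with the Notch1 constructs and cells with Clover alone.

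Molecular chaperones bind proteins that are not yet folded or have lost their fold. HSP70 proteins clamp short hydrophobic stretches in a cycle driven by ATP, J-domain proteins bring them clients and start ATP hydrolysis, and HSP110 proteins exchange the nucleotide. HSP90 acts later on kinases, receptors and other clients, while the chaperonins, TRiC in the cytosol and HSPD1 with its lid HSPE1 in the mitochondrion, fold proteins inside a closed chamber. Heat shock factor 1 (Hsf1) drives the inducible members through heat shock elements, repeats of the unit nGAAn in alternating directions, and the endoplasmic reticulum (ER) members are driven by the unfolded protein response through ER stress elements.

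Matches to these 2 kinds of element in the windows before start sites are shown for chosen members among those that hold a match. Windows of 250 bases before the annotated start sites were available for 67 of the 81 members and for 27025 genes, from RefSeq on build GRCm38.p6. Both strands were searched for 4 motifs. GAANNTTCNNGAA, a run of 3 heat shock units, stood in 3 of the 67 members (4.48%), Hspd1, Hspe1 and Dnajb6, and in 0.514% of all genes. The pair GAANNTTC stood in 12 members (17.9%, against 7.73% of all genes) and the pair TTCNNGAA in 7 members (10.4%, against 8.11%). Both pairs lie within the longer motif, so these counts overlap. Hspd1 and Hspe1 overlap at their 5′ ends, so the same stretch could be counted for both genes, which was not checked. The ER stress element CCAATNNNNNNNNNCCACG stood in 3 members (4.48%, against 0.13% of all genes), Hspa5, Hsp90b1 and Dnajc3. A match describes the letters and is not evidence of binding. The first pair of sequences shows matches to the 3-unit motif in capitals. In the Hspe1 line the capitals join overlapping matches on both strands, so they run longer than the motif, and in the Dnajb6 line they mark a single match. The Hspe1 site, at chr1:55088053-55088082 on the plus strand, lies just before Hspe1 and, in the GENCODE annotation, inside an untranslated exon of Hspd1, the neighbour that starts next to Hspe1 and runs the other way. The Dnajb6 site is at chr5:29735844-29735873 on the plus strand. GENCODE places the Dnajb6 and Hspa5 sites in untranslated exons of those genes, and the Dnajb6 site also overlaps a coding exon of Gm5129.
Hspe1: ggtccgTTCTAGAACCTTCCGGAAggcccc
Dnajb6: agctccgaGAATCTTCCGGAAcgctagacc
The next pair shows, in capitals, single inverted pairs of heat shock units before a start site of each of the 2 members that stood past 1.5-fold above con in both ICN libraries. The Hspa1a site is at chr17:34972242-34972271 and the Dnajb4 site at chr3:152193846-152193875, both on the minus strand. The Hspa1a match is to GAANNTTC and the Dnajb4 match to TTCNNGAA. Neither gene had a match to the other's motif. The Dnajb4 site precedes an annotated start that lies inside the gene's full span.
Hspa1a: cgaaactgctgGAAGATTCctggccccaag
Dnajb4: gttcgttcgttcgctgTTCTAGAAagtaca
The last pair shows the ER stress element in capitals, once before Hspa5 at chr2:34772020-34772049 on the plus strand and in 2 places before Hsp90b1 at chr10:86705510-86705694 on the minus strand. The second Hsp90b1 match reads on the opposite strand and appears as its complement in reverse.
Hspa5: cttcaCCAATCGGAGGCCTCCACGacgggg
Hsp90b1: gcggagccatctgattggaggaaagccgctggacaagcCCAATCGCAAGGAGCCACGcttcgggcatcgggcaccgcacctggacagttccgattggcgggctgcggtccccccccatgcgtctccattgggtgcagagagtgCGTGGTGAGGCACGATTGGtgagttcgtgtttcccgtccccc

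The libraries were compared before the members. Notch1 stood at 84.9 and 25.4 FPKM in CTdel, 190.0 and 888 FPKM in ICN, and 0.89 and 1.72 FPKM in con, so the targeted gene was above con in all 4 libraries with a construct, at unequal levels between replicates. Relative sequencing depth, read from the steps of the low values and set to 1 in con replicate 1, lay between 0.963 and 1.08. Of 14 B lineage markers 12 were in both tables, and 10 of them, Ebf1 and Rag1 included, were below FPKM 1 in all 6 libraries. Cd79b was the 1 marker at or above FPKM 1 in all 6. The summed level of the myeloid markers was 565 and 599 FPKM in CTdel, 311 and 193 FPKM in ICN, and 102 and 76.3 FPKM in con, from 8 of 9 markers in both tables. Spi1 and Tyrobp gave most of it, Lyz2 did not follow the sum, and Mpo and Elane were below FPKM 1 in all 6 libraries. That of the mast cell markers was 87.2 and 64.8 FPKM in CTdel, 118 and 88.5 FPKM in ICN, and 268 and 199.7 FPKM in con, with 4 of 9 markers in both tables. Gata2 gave most of that sum, and Hdc, at 7.48 and 1.13 FPKM in CTdel, 2.92 and 7.45 FPKM in ICN, and 0.53 and 0.39 FPKM in con, ran the other way. The B lineage sum was 10.2 and 18.9 FPKM in CTdel, 8.79 and 7.84 FPKM in ICN, and 4.33 and 5.92 FPKM in con. All 6 T lineage markers in both tables were below FPKM 1. The erythroid and megakaryocyte sum was 223 and 369.9 FPKM in CTdel, 273 and 463 FPKM in ICN, and 325 and 780.2 FPKM in con, and that of fibroblast and endothelial markers 40.3 to 63.2 FPKM over all 6 libraries. Of the 5 fibroblast and endothelial markers 4 were in both tables. Col1a1, Col1a2 and Cdh5 were below FPKM 1 in all 6 libraries, so Pecam1 gave most of that sum. The part of these marker levels in the results below was not tested. In bulk RNA, fewer cells of a type and less RNA per cell cannot be told apart.

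Chaperone transcripts made up 1.59% and 1.43% of all FPKM in CTdel cells, 1.66% and 1.18% in ICN cells, and 1.53% and 1.92% in con cells. The lowest share was in ICN replicate 2 and the highest in con replicate 2, and the 3 groups overlapped. Hspa8, Hsp90ab1 and Hsp90aa1 alone gave 51.6% and 50.2% of the members' sum in CTdel, 50.3% and 40.2% in ICN, and 46.3% and 51.7% in con. By mean level over the 6 libraries, 15 members were at FPKM 100 or more, 34 between 10 and 100, 16 between 1 and 10 and 12 below 1, among the 77 in both tables.

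**Figure D1:**
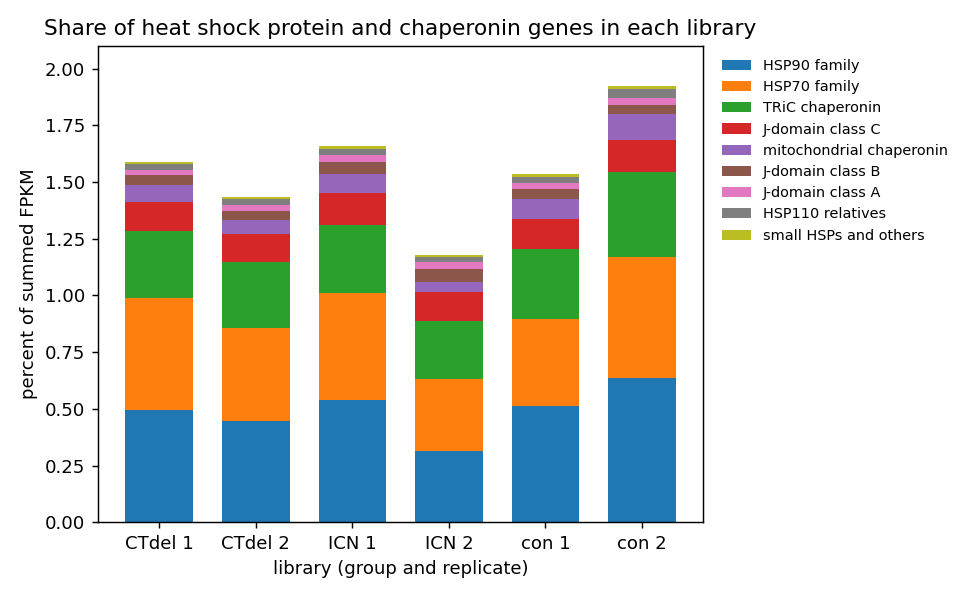
Share of each library's FPKM sum (percent) held by the members, stacked by role, for CTdel, ICN and con replicates 1 and 2. The totals run between 1.18% in ICN replicate 2 and 1.92% in con replicate 2, and the HSP90 and HSP70 families hold most of each bar.

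No member was called in any comparison, at an adjusted p under 0.05 from limma on log2(FPKM + 1). For CTdel against con, 0 of 66 members were called, against 1.41% of all tested genes (1.3% higher and 0.109% lower). For ICN against con, 0 of 66 were called, against 0.0362% of all tested genes, and for CTdel against ICN 0 of 66, against 0.0181%. The smallest adjusted p of a member was 0.290 when CTdel was set against con, 0.154 when ICN was, and 0.643 when CTdel was set against ICN. At an unadjusted p under 0.05, 3 members were lower and 0 higher for CTdel against con (3.99% and 7.79% of all genes), 3 lower and 4 higher for ICN against con (5.03% and 10.0%), and 2 lower and 0 higher for CTdel against ICN (3.64% and 3.49%). In either direction these were 3, 7 and 2 members, against 11.8%, 15.0% and 7.13% of all genes. The standard error of a member's log2 change had a median of 0.24 and a range of 0.19 to 0.46. The fitted log2 changes of the members lay between −0.76 and 0.54 for CTdel against con and between −0.86 and 1.27 for ICN against con. The CTdel against ICN changes lay between −0.89 and 0.46. A p above the threshold does not show that levels were equal. CTdel and ICN were set against the same con libraries, so those comparisons are not independent.

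The members were lower than con in replicate 2 more than in replicate 1. For CTdel against con, 35 of 66 members were lower in replicate 1 (57.0% of all genes) and 50 in replicate 2 (52.3% of all genes). With ICN, 26 were lower than con in replicate 1 (48.0% of all genes) and 43 in replicate 2 (48.4% of all genes). For CTdel against ICN, 49 were lower in replicate 1 (63.7% of all genes) and 28 in replicate 2 (50.2%), with 23 lower in both (38.3%) and 12 higher in both (24.0%). The median log2 change of the members was −0.03 and −0.25 for CTdel against con in replicates 1 and 2 (−0.06 and −0.02 over all genes), and 0.07 and −0.27 for ICN against con (0.02 and 0.02 over all genes). Con replicate 2 was the library with the highest level for 29 of the 66 members (43.9%, against 24.9% of all genes), and ICN replicate 2 was the one with the lowest for 24 (36.4%, against 26.2%). Without con replicate 2 the members' median fitted log2 change was 0.01 for both CTdel and ICN against con, and without con replicate 1 it was −0.28 and −0.27. With both con libraries it was −0.13 for CTdel and −0.14 for ICN, against −0.06 and 0.00 over all genes.

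Few members passed 1.5-fold the same way in both replicates. For CTdel against con, 0 members were higher and 1 lower (6.12% and 2.06% of all genes). With ICN, 2 were higher than con and 0 lower (5.65% and 1.88% of all genes). The higher members were Dnajb4 and Hspa1a. Hspa1a passed the filter only through the ICN libraries, so a higher level in ICN was a condition of its being counted. For CTdel against ICN, 0 were higher and 1, Hspa13, was lower (1.8% and 1.53% of all genes).

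**Figure D2:**
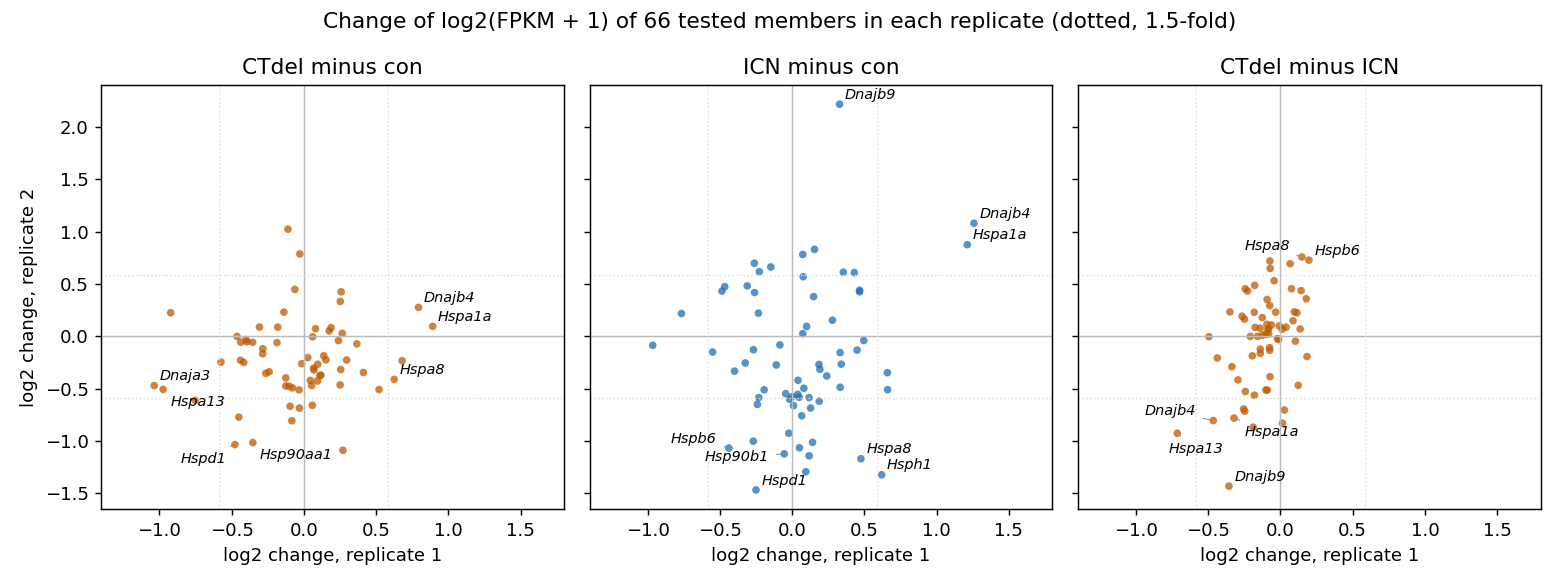
Change of log2(FPKM + 1) in replicate 1 (x axis) and replicate 2 (y axis) for the 66 tested members, 1 point each, with dotted lines at 1.5-fold. For ICN against con, Dnajb4 and Hspa1a stand past 1.5-fold in both replicates, while points for CTdel against con lie mostly below 0 on the y axis. Hspa1a passed the filter only through the ICN libraries.

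Hsp90ab1, the constitutive cytosolic HSP90, had the highest mean level of all members, at 1807 and 1540.1 FPKM in CTdel, 1724 and 951 FPKM in ICN, and 1664 and 1990.4 FPKM in con. Hsp90aa1, its stress-inducible partner, had 523 and 453 FPKM in CTdel, 737 and 454 FPKM in ICN, and 668 and 918 FPKM in con. ICN replicate 2 was the lowest library for Hsp90ab1, and both CTdel libraries stood below both con libraries for Hsp90aa1. The fitted log2 change of Hsp90aa1 was −0.68 (SE 0.30, adjusted p = 0.470) for CTdel against con and −0.44 (SE 0.30, adjusted p = 0.508) for ICN against con. That of Hsp90ab1 was −0.13 (SE 0.29, adjusted p = 0.923) for CTdel against con, −0.51 (SE 0.29, adjusted p = 0.439) for ICN against con and 0.38 (SE 0.29, adjusted p = 0.756) for CTdel against ICN. None passed the test. The FPKM ratio of the inducible to the constitutive form moved less between replicates: it was 0.290 and 0.294 in CTdel, 0.428 and 0.478 in ICN, and 0.402 and 0.461 in con. Both CTdel ratios lay below the ICN and con ratios, which overlapped each other. This ratio was not tested.

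Among the cytosolic HSP70 proteins, Hspa8, the constitutive form that also strips clathrin from vesicles, had 1833 and 1554 FPKM in CTdel, 1652 and 918 FPKM in ICN, and 1187 and 2066 FPKM in con. Its log2 change against con turned between the replicates: for ICN it was 0.48 in replicate 1 and −1.17 in replicate 2, and for CTdel 0.63 in replicate 1 and −0.41 in replicate 2. The 2 con libraries enclosed all the others except ICN replicate 2. The fitted log2 change for CTdel against ICN was 0.45 (SE 0.39, adjusted p = 0.773).

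Hspa1a, the HSP70 gene most strongly induced by heat, had 0.93 and 0.24 FPKM in CTdel, 1.41 and 1.13 FPKM in ICN, and 0.04 and 0.16 FPKM in con. It was near 0 in con, and both ICN libraries were above the CTdel and con libraries, at about the level of the filter. Over all genes, those above 0 FPKM numbered 16413 and 16946 in ICN, 15822 and 15599 in CTdel, and 14951 and 14981 in con. Without the filter, 6205 of 16799 genes were higher and 3281 lower in both replicates for ICN against con. The part of this pattern in the low values of Hspa1a and Hspa1b was not tested. Hspa1a passed the filter only through the ICN libraries, so a higher level in ICN was a condition of its being tested. On the log2(FPKM + 1) scale its fitted change was 1.04 (SE 0.30, adjusted p = 0.244) for ICN against con, 0.49 (SE 0.30, adjusted p = 0.641) for CTdel against con and −0.55 (SE 0.30, adjusted p = 0.709) for CTdel against ICN. With a pseudocount of 0.1 in place of 1 the ICN against con change was 2.84 and the CTdel against con change 1.63, and under quantile normalization they were 0.57 and 0.082. Hspa1b, its near-identical copy 10120 bases away on chromosome 17, had 0.16 and 0.10 FPKM in CTdel and 0.20 and 0.16 FPKM in ICN. It was not tested, and con libraries list it at 0. Reads that fit both copies can be split between them, so each value is uncertain. Hspa1l and Hspa2, relatives known from the testis, stood at 2.07 to 4.13 FPKM and 1.83 to 3.87 FPKM. Each was highest in ICN replicate 2. Hspa14, which acts at the ribosome, had 44.3 to 65.8 FPKM over the 6 libraries.

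The mitochondrial chaperonin pair was lower than con in all 4 comparisons within replicate for Hspd1 and in 3 of 4 for Hspe1. Hspd1 (chr1:55077833-55088243), the ring-forming HSP60, had 149.8 and 117 FPKM in CTdel, 176 and 86.2 FPKM in ICN, and 209 and 240.3 FPKM in con. Hspe1 (chr1:55088148-55091317), the lid, had 223 and 186 FPKM in CTdel, 253 and 133 FPKM in ICN, and 236 and 327 FPKM in con. All 4 CTdel and ICN libraries of Hspd1 were below both con libraries, and for Hspe1 ICN replicate 1 lay between the con libraries. Mean Hspd1 was 133 ± 23.3 FPKM in CTdel, 131 ± 63.1 FPKM in ICN and 225 ± 22.2 FPKM in con (SD, n = 2 each). The fitted log2 change of Hspd1 was −0.76 (SE 0.32, adjusted p = 0.436) for CTdel against con and −0.86 (SE 0.32, adjusted p = 0.312) for ICN against con. Without con replicate 2 these were −0.31 and −0.41, without con replicate 1 −1.20 and −1.30, and without ICN replicate 2 the ICN against con change was −0.39. That of Hspe1 was −0.44 (SE 0.34, adjusted p = 0.717) for CTdel against con and −0.60 (SE 0.34, adjusted p = 0.438) for ICN against con. None passed the test. These genes run in opposite directions and overlap at their 5′ ends, and the matches printed above lie before Hspe1 and inside Hspd1. The Hspe1 to Hspd1 ratio was 1.49 and 1.60 in CTdel, 1.44 and 1.54 in ICN, and 1.13 and 1.36 in con. All 4 ratios with a construct lay above both con ratios, untested. RefSeq lists 5 pseudogenes of Hspd1 and 7 of Hspe1, none of which is among the tables' genes. Their reads may have been counted with the parents.

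Among the other mitochondrial members, Hspa9, the matrix HSP70 that pulls proteins through the inner membrane, had 186 and 131 FPKM in CTdel, 184 and 233 FPKM in ICN, and 313 and 200.2 FPKM in con and was the single member lower than con past 1.5-fold in both replicates in CTdel, named here after its values were seen. Its log2 change for CTdel against con was −0.75 in replicate 1 and −0.61 in replicate 2. For ICN it was −0.77 in replicate 1 and 0.22 in replicate 2. Dnaja3, the J-domain partner of HSPA9, had 22.0 and 24.0 FPKM in CTdel, 23.1 and 31.6 FPKM in ICN, and 46.1 and 33.6 FPKM in con, with CTdel below both con libraries and ICN below them too, as for Hspd1. Its fitted log2 change for CTdel against con was −0.75 (SE 0.27, adjusted p = 0.347). Dnajc19, a J-domain protein of the import motor, had 22.3 and 21.8 FPKM in CTdel, 23.5 and 12.9 FPKM in ICN, and 21.5 and 29.6 FPKM in con and was lowest in ICN replicate 2. Over all 8 tested mitochondrial members, 5 were lower in both replicates for CTdel against con and 0 higher in both, against 35.8% and 26.2% of all tested genes. With ICN 2 were lower in both and 0 higher in both, against 26.7% and 29.8% of all tested genes.

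The ER members differed from each other. Hspa5 (BiP), the HSP70 of the ER, had 383 and 246 FPKM in CTdel, 337 and 281 FPKM in ICN, and 238 and 289 FPKM in con. Hsp90b1 (GRP94), the ER HSP90, had 192 and 198 FPKM in CTdel, 201 and 126 FPKM in ICN, and 209 and 275 FPKM in con. Hspa5 overlapped across all 3 groups, whereas Hsp90b1 was lower in all CTdel and ICN libraries than in either con library. The fitted log2 change of Hsp90b1 was −0.59 (SE 0.29, adjusted p = 0.395) for ICN against con and −0.30 (SE 0.29, adjusted p = 0.790) for CTdel against con. That of Hspa5 was 0.23 (SE 0.27, adjusted p = 0.691) for ICN against con and 0.22 (SE 0.27, adjusted p = 0.835) for CTdel against con. The Hsp90b1 to Hspa5 ratio was 0.501 and 0.806 in CTdel, 0.598 and 0.448 in ICN, and 0.877 and 0.953 in con. The ratio was below both con values in all 4 libraries with a construct, and the windows before both genes hold the ER stress element printed above. The ratio was not tested.

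Hspa13 (chr16:75755190-75767276), a microsomal HSP70 relative, had 52.9 and 35.4 FPKM in CTdel, 87.3 and 68.1 FPKM in ICN, and 105 and 50.7 FPKM in con. Both CTdel libraries were below both ICN libraries, and CTdel was below con within each replicate, but CTdel replicate 1 stood above con replicate 2. The fitted log2 change was −0.82 (SE 0.24, adjusted p = 0.643) for CTdel against ICN and −0.74 (SE 0.24, adjusted p = 0.290) for CTdel against con. Dnajb9 (chr12:44205897-44210068), the ER J-domain protein ERdj4 that works with BiP on misfolded proteins, had 26.3 and 16.3 FPKM in CTdel, 34.0 and 45.5 FPKM in ICN, and 26.9 and 8.99 FPKM in con. Both ICN libraries were above all CTdel and con libraries, but the con libraries themselves stood far apart. Its fitted log2 change was 1.27 (SE 0.44, adjusted p = 0.290) for ICN against con and −0.89 (SE 0.44, adjusted p = 0.705) for CTdel against ICN. Within replicates the ICN against con change was 0.33 in replicate 1 and 2.22 in replicate 2. Among the remaining ER members, Dnajc3, which inhibits the stress kinase PERK, had 12.6 to 19.4 FPKM and was highest in the con libraries. Dnajb11, a BiP partner, had 43.0 to 64.6 FPKM and Dnajc10, an ER reductase, 17.2 to 32.6 FPKM. Over the 9 listed ER members, a list that leaves out Dnajb12 of the ER membrane, 5 were lower and 0 higher in both replicates for CTdel against con. For ICN against con 4 were lower and 1 higher. Of all tested genes 35.8% were lower and 26.2% higher in both replicates for CTdel against con. The shares for ICN against con were 26.7% and 29.8%.

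The cytosolic chaperonin TRiC, a double ring of 8 different subunits that folds actin and tubulin, had similar levels across its subunits. The 7 member subunits, Cct2, Cct3, Cct4, Cct5, Cct6a, Cct7 and Cct8, were set beside the eighth, Tcp1. The median FPKM of the 8 was 199 and 203 in CTdel, 204 and 182 in ICN, and 219.8 and 279.7 in con. ICN replicate 2 was lowest and con replicate 2 highest. The highest subunit was 1.5 to 2.02 times the lowest within a library, and the coefficient of variation across subunits was 14.1% to 21.4%. Cct6a was the lowest subunit in 5 libraries and Cct8 in con replicate 2. Cct2 was highest in the 3 libraries of replicate 1 and Cct5 in the 3 of replicate 2.

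Cct5 had 252 and 251 FPKM in CTdel, 249.7 and 239 FPKM in ICN, and 236 and 337 FPKM in con, and Cct6a had 182 and 163 FPKM in CTdel, 173 and 118 FPKM in ICN, and 175 and 226 FPKM in con. Cct2 had 292 and 245 FPKM in CTdel, 265 and 181 FPKM in ICN, and 263 and 287 FPKM in con. Over the 6 libraries Cct3 ranged between 183 and 279 FPKM, Cct4 between 194 and 255, Cct7 between 189 and 285 and Cct8 between 147 and 219.8. In replicate 2 all 7 subunits were lower in CTdel and in ICN than in con, with median log2 changes of −0.43 and −0.58. In replicate 1 the medians were −0.03 and 0.00. Of all genes 52.3% were lower in CTdel and 48.4% in ICN than in con in replicate 2. Con replicate 2 was the highest library for 5 of the 7 subunits, and ICN replicate 2 the lowest for 5. The testis paralog Cct6b and Cct8l1 did not exceed 0.29 FPKM and were not tested. For CTdel against ICN, the fitted log2 change of Cct2 was 0.29 (SE 0.23, adjusted p = 0.761).

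**Figure D3:**
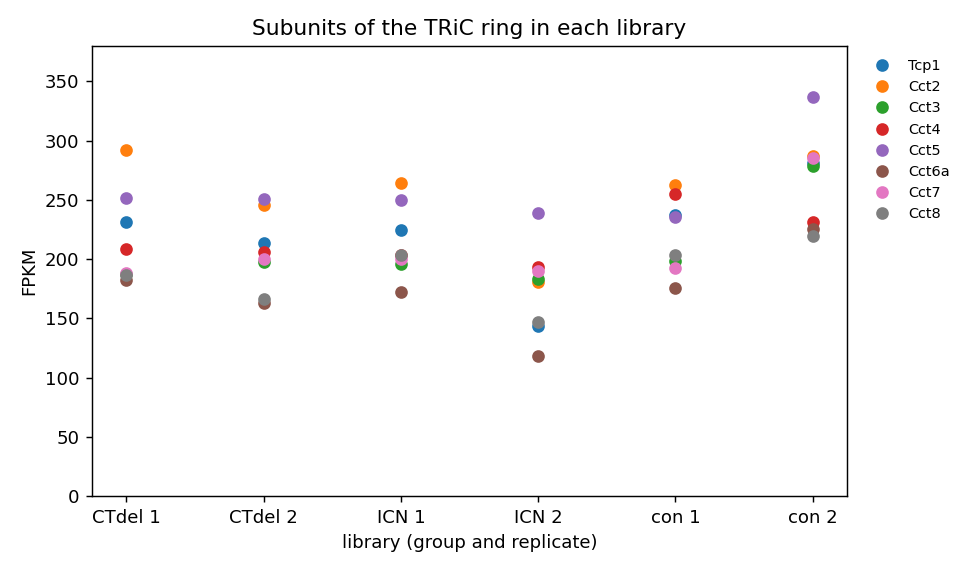
FPKM of the 8 TRiC subunits (7 members and Tcp1) in each library, 1 point per subunit. Within each library the subunits lie close together, with medians between 182 in ICN replicate 2 and 279.7 in con replicate 2.

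The J-domain proteins of class B, which resemble the bacterial DnaJ in part and include the partners of inducible HSP70 and the ER partners of BiP, were mostly higher with ICN than with con. With ICN, 6 of 10 tested class B members were higher than con in both replicates and 1 lower, against 29.8% and 26.7% of all genes. The HSP70 partner Dnajb1 (0.45 and −0.13) and the BiP partner Dnajb11 (0.33 and −0.49) changed sign between replicates 1 and 2. With CTdel, 4 class B members were higher than con in both replicates and 1 lower, against 26.2% and 35.8% of all genes. No class B member passed the test. Dnajb4 (chr3:152181580-152210432), a cytosolic partner of HSP70, had 15.3 and 9.25 FPKM in CTdel, 21.5 and 16.9 FPKM in ICN, and 8.40 and 7.46 FPKM in con. Mean Dnajb4 was 12.3 ± 4.28 FPKM in CTdel, 19.2 ± 3.25 FPKM in ICN and 7.93 ± 0.665 FPKM in con (SD, n = 2 each). Both ICN libraries were above all others and both CTdel libraries above both con libraries. The fitted log2 change was 1.17 (SE 0.22, adjusted p = 0.154) for ICN against con, 0.54 (SE 0.22, adjusted p = 0.431) for CTdel against con and −0.63 (SE 0.22, adjusted p = 0.663) for CTdel against ICN. It had the smallest p of all members in ICN against con.

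Dnajb6, a suppressor of aggregation and the most abundant class B member, had 79.7 and 71.7 FPKM in CTdel, 90.4 and 106 FPKM in ICN, and 70.4 and 69.1 FPKM in con, with both ICN libraries highest. Dnajb12, an ER membrane J-domain protein that is not on the ER list, had 25 and 24.9 FPKM in CTdel, 23.2 and 25.7 FPKM in ICN, and 20.8 and 19.5 FPKM in con, with all libraries of both constructs above con and a fitted log2 change for CTdel against con of 0.29 (SE 0.20, adjusted p = 0.675). Dnajb13, a component of sperm and cilia, had 1.19 and 1.66 FPKM in CTdel, 1.53 and 1.66 FPKM in ICN, and 0.83 and 0.98 FPKM in con and a fitted log2 change of 0.34 (SE 0.24, adjusted p = 0.684) for CTdel against con. Dnajb2, Dnajb5 and Dnajb14 had 4.42 to 7.98, 1.0 to 2.27 and 4.22 to 5.72 FPKM. Dnajb1, the usual HSP70 partner in the heat shock response, had 20.4 and 17.0 FPKM in CTdel, 23.5 and 19.5 FPKM in ICN, and 16.9 and 21.5 FPKM in con and overlapped across all groups.

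In class A, Dnaja2, the highest class A member, had 62.0 and 58.0 FPKM in CTdel, 67.7 and 57.5 FPKM in ICN, and 59.1 and 71.8 FPKM in con. Dnaja1 had 38.9 to 62.4 FPKM. Both overlapped between groups, apart from Dnaja1 in CTdel, whose 2 libraries were below all others. In class C, Dnajc8, a splicing-associated protein, had 81.6 and 76.6 FPKM in CTdel, 100.2 and 102 FPKM in ICN, and 82.4 and 92.0 FPKM in con and was highest in ICN. Dnajc21, which acts in ribosome maturation, had 17.9 and 15.3 FPKM in CTdel, 20.5 and 12.9 FPKM in ICN, and 24.8 and 26.9 FPKM in con. All CTdel and ICN libraries were below con for Dnajc21. Its fitted log2 change was −0.63 (SE 0.24, adjusted p = 0.322) for ICN against con. Cct4, Dnajc1, Dnajc7 and Dnajc18 were among other members below con in the same way. The share of all tested genes with this pattern was not counted, here or for other genes described this way. Dnajc9, a histone chaperone, had 40.7 to 86.4 FPKM and was highest in ICN replicate 2, as was Dnajc13, which acts on endosomes, at 16.0 to 23.2 FPKM. Dnajc6 (auxilin), which helps HSPA8 uncoat clathrin, had 15.1 to 33.7 FPKM, and Dnajc5, the cysteine string protein, stayed within 37.5 to 41.8 FPKM. Dnajc2, a partner of the ribosome, had 57.7 to 89.1 FPKM. The remaining tested class C members lay between 3.56 and 70.1 FPKM. Of the 25 tested class C members, 9 were lower and 5 higher in both replicates for ICN against con, against 26.7% and 29.8% of all genes. For CTdel against con 10 were lower and 2 higher, against 35.8% and 26.2% of all genes.

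**Figure D4:**
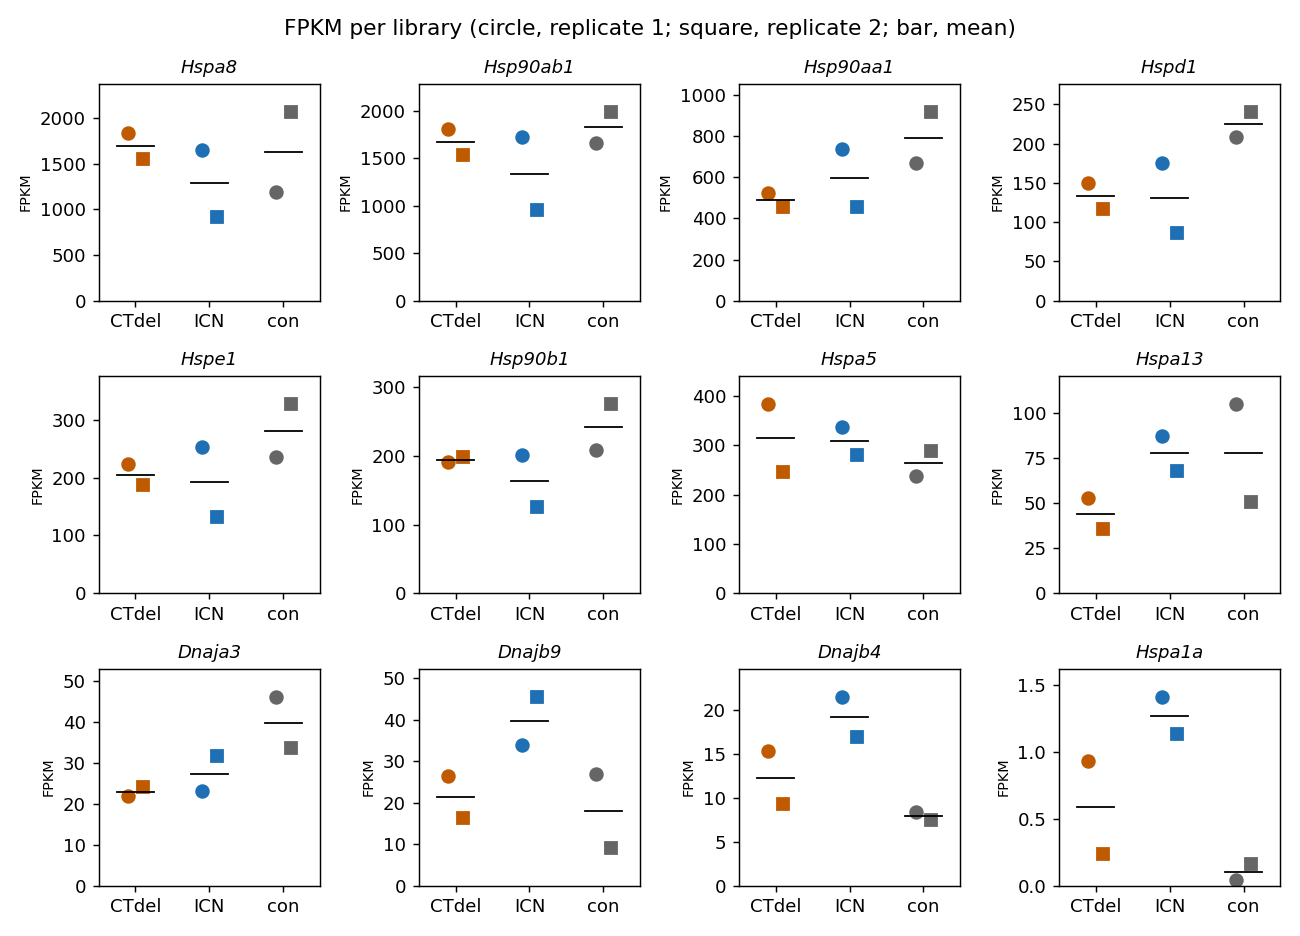
FPKM (linear y axes from 0) of 12 members in CTdel, ICN and con, with a circle for replicate 1, a square for replicate 2 and a bar at the mean of 2 libraries. Dnajb4 stands above con in both ICN libraries and Hspd1 below con in all 4 libraries with a construct.

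Among the HSP110 proteins, Hspa4 had 83.6 and 82.7 FPKM in CTdel, 92.3 and 78.3 FPKM in ICN, and 89.8 and 115 FPKM in con, and Hspa4l had 13.6 and 11.5 FPKM in CTdel, 16.3 and 17.0 FPKM in ICN, and 11.8 and 10.8 FPKM in con. Both ICN libraries of Hspa4l were above all CTdel and con libraries, with a fitted log2 change of 0.52 (SE 0.20, adjusted p = 0.322) for ICN against con. Hsph1, HSP105 in another naming, had 26.4 and 27.9 FPKM in CTdel, 33.9 and 23.5 FPKM in ICN, and 21.7 and 60.4 FPKM in con, and con replicate 2 stood far above the other libraries.

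The small heat shock proteins, which hold unfolded proteins without ATP, were scarce. Hspb6 had 4.54 and 4.75 FPKM in CTdel, 3.83 and 2.47 FPKM in ICN, and 5.54 and 6.27 FPKM in con, with ICN lowest and con highest in each replicate, and a fitted log2 change of −0.75 (SE 0.25, adjusted p = 0.280) for ICN against con and 0.46 (SE 0.25, adjusted p = 0.707) for CTdel against ICN. Hspb11, an intraflagellar transport protein that shares the name, had 9.03 and 9.40 FPKM in CTdel, 12.6 and 11.0 FPKM in ICN, and 18 and 7.89 FPKM in con. Hspb1 and Hspb7 did not exceed 0.55 FPKM and were not tested. Hspb9 had 0.38 to 1.76 FPKM. Hspbap1, which shares only the letters, had 1.28 to 3.16 FPKM. Hspbp1 is a nucleotide exchange factor for HSP70 and not itself a heat shock protein. It had 28.4 and 34.6 FPKM in CTdel, 28.6 and 32.2 FPKM in ICN, and 27.3 and 55.2 FPKM in con. Con replicate 2 was its highest library. The other untested members, including Hspa12a, Hspa12b, Dnaja4, Dnajb3, Dnajb7 and Dnajc28, did not exceed 1.0 FPKM in any library.

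Leaving out 1 library made calls among the members. Without ICN replicate 1, limma called 8 of 66 members for ICN against con (12.1%), against 13.3% of all tested genes (8.56% higher and 4.74% lower), where the spread of ICN is taken from the groups that keep both libraries. Dnajb9 (log2 change 2.02, adjusted p = 0.00382) and Dnajb4 (1.21, adjusted p = 0.0268) were higher. The 6 lower members were Hspd1 (−1.33, adjusted p = 0.0140), Hspe1 (−1.11, adjusted p = 0.0333), Hsp90b1 (−1.04, adjusted p = 0.0292), Hspb6 (−1.04, adjusted p = 0.0486), Dnajc19 (−1.02, adjusted p = 0.0434) and Hsp90ab1 (−0.94, adjusted p = 0.0324). For CTdel against ICN the same omission called 1 member, Dnajb9 (−1.63, adjusted p = 0.0153), against 8.06% of all genes (3.13% higher and 4.93% lower). ICN replicate 2, the library left for ICN, also has the highest Notch1. The part of the Notch1 level in these calls was not tested. Leaving out any 1 of the other 5 libraries called no member.

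The rest of the pathway gave no calls either. Of 34 heat shock factors and cytosolic co-chaperones 30 were tested, of 25 ER folding and unfolded protein response genes 24, and of 14 mitochondrial import and folding genes 14. None was called in any comparison. For CTdel against con, 15 co-chaperones were lower in both replicates and 3 higher, 14 ER genes lower and 1 higher, and 8 mitochondrial genes lower and 0 higher. For ICN against con the counts, lower and higher in the order of these lists, were 10 and 3, 7 and 1, and 5 and 2. For CTdel against ICN they were 8 and 7, 7 and 6, and 8 and 2. For comparison, 35.8% of all genes were lower and 26.2% higher in both replicates for CTdel against con, with 26.7% and 29.8% for ICN against con. CTdel against ICN gave 38.3% and 24.0%. Hsf1 had 19.9 and 23.3 FPKM in CTdel, 18.6 and 16.6 FPKM in ICN, and 23.4 and 28.3 FPKM in con, and its log2 change for ICN against con was −0.52 (SE 0.21, adjusted p = 0.334). Xbp1, a transcription factor of the unfolded protein response, had 84.7 and 76.2 FPKM in CTdel, 74.8 and 55.5 FPKM in ICN, and 150.4 and 95.6 FPKM in con and a log2 change of −0.89 (SE 0.22, adjusted p = 0.201) for ICN against con and −0.57 (SE 0.22, adjusted p = 0.383) for CTdel against con. All 4 libraries with a construct were below both con libraries for Xbp1, and the same held for Hyou1, an ER HSP110 relative, at 43.0 and 36.8 FPKM in CTdel, 41.0 and 27.8 FPKM in ICN, and 52.3 and 64.9 FPKM in con. Ddit3 (CHOP), a stress-induced factor, had 48.5 and 20.7 FPKM in CTdel, 89.7 and 242 FPKM in ICN, and 124 and 21.5 FPKM in con and a log2 change of −2.18 (SE 0.84, adjusted p = 0.688) for CTdel against ICN. Its con libraries stood far apart.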

How the data were processed

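RNA from 6 BaF3 libraries (2 each of CTdel, ICN and con) was made into mRNA libraries and sequenced. Per the file headers, the authors deposited FPKM values per gene, with the 3 groups of a replicate in 1 table. The submitters' processing notes name the builds mm10 and hg19 beside RSEM, Bowtie2 and HISAT2, but give neither a role nor a version. Whether counting used strand is not given in the sources used here. FPKM keeps no read counts, so counting error was not estimated. Here 26 symbols that had become dates were restored, and the 11050 genes that both tables list and that reach FPKM 1 in 2 or more libraries were tested with limma 3.58.1 in R 4.3.3 on log2(FPKM + 1), so folds of low genes are understated. The model held the group and the replicate table as a block. It used a trended 2-sided moderated test with Benjamini-Hochberg adjustment over all tested genes, and the code was tested on simulated data. Within-replicate changes are differences of log2(FPKM + 1) in 1 table.

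The members and lists were chosen with earlier results of these data known. Members named with values were the 4 largest changes each way per comparison with 1 sign in both replicates, the highest of each role, the TRiC subunits and the inducible and constitutive pairs. Hspa9 and members given as ranges or to fill a role were chosen after their values were seen. Sequences came from RefSeq promoter windows on GRCm38.p6. The alternatives were no block, a pseudocount of 0.1, no filter, a common FPKM sum, quantile normalization, fits of 2 groups, a threshold of 0.1, a fold of 2 and leaving out each library.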

Additional observations from a re-analysis of the deposited data

How the results depend on the processing

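No member was called in any comparison under any alternative except the omission of ICN replicate 1. The replicate numbers share deviations unevenly. Over 11050 genes the correlation of deviations was 0.24 for CTdel with ICN, 0.33 for CTdel with con and −0.10 for ICN with con. Over the 66 tested members it was 0.27, 0.23 and −0.31 in the same order. The numbers therefore do not establish pairs, and all counts made within replicates rest on that numbering. Without the replicate block 0 members were called, and 130, 3 and 2 genes were called for CTdel against con, ICN against con and CTdel against ICN. The count of all genes called was 262 and 11 at an adjusted p under 0.1 for CTdel and ICN against con, and 730 and 162 in fits of the 2 groups only. It was 0 in all 3 comparisons without the filter (more genes tested), and 0 for CTdel against ICN with a pseudocount of 0.1. Members past 1.5-fold in both replicates numbered 0 for CTdel against con and 1 for ICN against con under quantile normalization. At 2-fold they numbered 0, 1 and 0 for CTdel against con, ICN against con and CTdel against ICN. The Hspa5 change for CTdel against ICN turned to 0.0055 under quantile normalization. The same scaling gave Dnajb13 0.16 for CTdel against con (0.59 with a pseudocount of 0.1), and Hsp90ab1 −0.31 and Hspa8 −0.17 for ICN against con. In CTdel against ICN it gave these genes 0.23 and 0.30, and a pseudocount of 0.1 gave Hspa1a −1.20.

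Leaving out 1 library gave 109 to 731 genes called for CTdel against con, 11 to 1470 for ICN against con and 2 to 891 for CTdel against ICN. Members called ranged over 0 to 8 for ICN against con and 0 to 1 for CTdel against ICN, and the members' median for CTdel against ICN over −0.15 to 0.077. Of 39 named log2 changes 33 moved by over 1.5 times without some library. Log2 changes that changed sign ranged as follows for CTdel against con: Hsp90ab1 −0.53 to 0.28, Hsp90b1 −0.65 to 0.055, Hspa5 −0.14 to 0.59, Hspa8 −0.56 to 0.78 and Hspe1 −0.97 to 0.084. For ICN against con Hsp90aa1 ranged over −0.89 to 0.019, Hspa5 −0.13 to 0.59 and Hspa8 −1.02 to 0.32. For CTdel against ICN Hsp90aa1 ranged over −0.66 to 0.16, Hsp90ab1 −0.054 to 0.82, Hsp90b1 −0.16 to 0.74, Hspa5 −0.33 to 0.32, Hspa8 −0.11 to 1.02, Hspd1 −0.37 to 0.57 and Hspe1 −0.36 to 0.67. The cause was not tested. With 2 libraries a group and no read counts, members at low FPKM are the least certain.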
